A study of Mus musculus with 21 samples.

Results

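The 10 genes described here are genes of blood endothelium, the cell layer that lines blood vessels: Clec14a, Pecam1, Cdh5, Emcn, Kdr, Flt1, Tie1, Egfl7, Vwf and Sele. They were taken by name, as the gene rows whose symbol equals 1 of these names, and make up 10 of the 55487 gene rows in each of the deposited skin and lymph node tables. The set was built around Clec14a, which was selected on its measured counts in these same libraries; the contrast used for that choice is not recorded. Clec14a is therefore given below as values and fitted fold changes, with no test, and every count of genes that passed a test runs over the other 9.

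Polyadenylated RNA was sequenced from skin and from inguinal lymph nodes of BALB/c wild-type (WT) mice and of Ifnk TG mice, which carry an interferon kappa transgene under the keratin 14 promoter, so that it is driven in keratinocytes. The skin came from untreated female and male mice at 12 months of age, as 3 WT libraries, 2 from nonlesional Ifnk TG skin and 4 from lesional Ifnk TG skin. The nodes form 4 groups of 3 libraries: WT and Ifnk TG, each without irradiation and after UVB at 250 mJ/cm2 on 3 days a week for 2 weeks, followed by 2 weeks of observation. The labels give no age for the node mice, and no sex, body site or mouse for any library. They name no second batch, but node and skin library names begin with different numbers, whose meaning is not given. Each library is named below by its group and its sample number in the labels. Since the labels do not say that each library is a separate mouse, the p-values measure the spread between these libraries.

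Total counts ran from 40499078 to 56511276 in the 9 skin libraries and from 27599809 to 36428435 in the 12 node libraries. A count of 0 allows a share of up to 7.41e-06 percent of a library's counts in the shallowest skin library and 1.09e-05 percent in the shallowest node library, for counting error only, since the reads carry no molecular identifiers. Levels are counts-per-million values (CPM), scaled by trimmed mean of M-values (TMM) factors within each tissue. Skin and node tables were normalised separately, so a level in skin and a level in nodes set side by side are not on a tested common scale.

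Endothelial cells sense growth factors and flow, hold the vessel wall together through junctions between neighbouring cells, and decide where leukocytes leave the blood. Vascular endothelial growth factors signal through the receptors of the Kdr and Flt1 genes, and angiopoietins through Tek with its partner Tie1. Junctional proteins such as those of Cdh5 and Pecam1 seal the wall, and selectins such as the product of Sele appear on inflamed vessels, where rolling leukocytes bind them. Skin holds dense capillary beds around hair follicles and in fat and muscle, and lymph nodes hold specialised venules through which lymphocytes enter.

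Positions are on GRCm38 with GENCODE M21 gene models. Clec14a (ENSMUSG00000045930), a C-type lectin-like surface protein of endothelium that binds Mmrn2, is a gene of 1 exon on chromosome 12 from 58264720 to 58269290. Pecam1 (ENSMUSG00000020717), an adhesion molecule of endothelial junctions that leukocytes and platelets also carry, lies on chromosome 11 from 106654217 to 106750628. Cdh5 (ENSMUSG00000031871), the endothelial cadherin, lies on chromosome 8 from 104101625 to 104144511. These are surface proteins, as is the sialomucin of Emcn (ENSMUSG00000054690), a gene of capillary and venous endothelium on chromosome 3 from 137341067 to 137432185. The 3 receptor tyrosine kinase genes come next. Kdr (ENSMUSG00000062960), the main signalling receptor for Vegfa, lies on chromosome 5 from 75932827 to 75978458. Flt1 (ENSMUSG00000029648), a receptor that also serves as a decoy for Vegfa, lies on the same chromosome from 147561604 to 147726011. Tie1 (ENSMUSG00000033191), an orphan receptor that pairs with Tek, lies on chromosome 4 from 118471191 to 118490061. The products of the next pair are secreted. Egfl7 (ENSMUSG00000026921), a matrix-bound factor whose gene hosts Mir126a, lies on chromosome 2 from 26580014 to 26593120. Vwf (ENSMUSG00000001930), the clotting factor that endothelium stores and platelets also hold, lies on chromosome 6 from 125546774 to 125686679. Sele (ENSMUSG00000026582), the selectin of activated endothelium, lies on chromosome 1 from 164048234 to 164057677. Exons of Egfl7 share 264 bases with Gm20532 on the same strand and 64 bases with Agpat2 on the other strand, so its counts depend on how reads there were assigned.

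Promoter windows of 250 bases before to 50 bases after the start were found in the RefSeq table (GRCm38.p6) for 7 of the 10 genes, as 9 windows; Pecam1, Cdh5 and Vwf have no entry. They were searched on both strands for AGGAAG, the core of ETS factor motifs with its flanks, whose reverse complement is CTTCCT, because ETS factors are known for endothelial gene control. The letters occur in 11613 of all 32851 promoter windows of that length, or 35.4 percent. Of the genes shown, Emcn, Flt1 and Tie1 hold 2 matches each, and Clec14a and Kdr hold 0. Among the 3 Egfl7 windows the number of matches was 3, 2 and 0, and the Sele window holds 1. The 5 windows printed belong to Clec14a and to the 4 genes with an entry that passed the test in lesional skin below; capitals mark the matches. They lie at chr12:58269209-58269508 (minus strand), chr3:137340828-137341127 (plus), chr5:75978406-75978705 (minus), chr5:147725962-147726261 (minus) and chr4:118489800-118490099 (minus), and each is written 5′ to 3′ along its gene. A match is a description of the letters, and 0 matches says only that these letters are not in the window.
Clec14a: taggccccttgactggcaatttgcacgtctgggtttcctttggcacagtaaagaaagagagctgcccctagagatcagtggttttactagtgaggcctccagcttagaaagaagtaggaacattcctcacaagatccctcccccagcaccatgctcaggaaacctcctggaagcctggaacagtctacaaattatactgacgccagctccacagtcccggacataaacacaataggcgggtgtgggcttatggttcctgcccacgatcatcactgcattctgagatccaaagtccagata
Emcn: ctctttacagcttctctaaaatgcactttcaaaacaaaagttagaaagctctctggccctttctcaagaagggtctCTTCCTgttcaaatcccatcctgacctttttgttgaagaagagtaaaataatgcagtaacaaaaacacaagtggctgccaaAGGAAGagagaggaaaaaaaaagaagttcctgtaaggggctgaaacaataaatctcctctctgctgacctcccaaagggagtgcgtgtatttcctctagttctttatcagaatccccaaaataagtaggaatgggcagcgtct
Kdr: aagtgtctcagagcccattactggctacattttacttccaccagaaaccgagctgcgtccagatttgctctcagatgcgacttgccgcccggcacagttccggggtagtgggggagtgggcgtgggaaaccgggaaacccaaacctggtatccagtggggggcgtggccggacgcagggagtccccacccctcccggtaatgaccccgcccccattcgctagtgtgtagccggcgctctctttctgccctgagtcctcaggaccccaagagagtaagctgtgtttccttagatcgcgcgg
Flt1: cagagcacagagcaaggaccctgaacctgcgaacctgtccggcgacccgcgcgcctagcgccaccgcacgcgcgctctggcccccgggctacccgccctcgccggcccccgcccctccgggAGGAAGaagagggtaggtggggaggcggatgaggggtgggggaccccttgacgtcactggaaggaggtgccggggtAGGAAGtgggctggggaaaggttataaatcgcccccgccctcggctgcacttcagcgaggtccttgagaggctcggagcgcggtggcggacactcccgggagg
Tie1: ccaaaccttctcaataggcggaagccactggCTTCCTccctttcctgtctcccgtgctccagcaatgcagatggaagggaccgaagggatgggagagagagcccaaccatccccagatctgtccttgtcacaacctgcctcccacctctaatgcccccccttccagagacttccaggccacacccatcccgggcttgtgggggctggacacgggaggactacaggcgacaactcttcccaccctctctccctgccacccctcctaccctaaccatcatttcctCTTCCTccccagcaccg

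All 10 genes were detected in all 9 skin libraries, with between 72 counts (Sele in lesional 5) and 5221 counts (Pecam1 in WT 8). Per kilobase of exon, which allows levels to be compared between genes, the median level in skin was highest for Pecam1 at 12.7 CPM per kb, followed by Cdh5 at 8.42 and Egfl7 at 4.24. Kdr at 3.63, Vwf at 3.48 and Tie1 at 3.44 CPM per kb came next, then Clec14a at 2.83, Emcn at 1.90, Flt1 at 1.74 and Sele at 1.73. Of a list of 27 other endothelial genes, such as Cd34, Tek and Cldn5, all 27 passed the filter on low counts in skin. Endothelial transcripts were thus present in every skin library. In the nodes the order was different. Pecam1 had a median of 39.8 CPM per kb, Cdh5 1.51, and each of the other 8 genes less than 0.5. Leukocytes, which also carry Pecam1, make up most of a lymph node, and 9 of 9 leukocyte markers had counts in each node library, with a sum of 4349 to 4853 CPM led by Ptprc. The cell source of the Pecam1 reads in nodes was not tested. The node tissue was pressed through a cell strainer before lysis, and its share of vessel cells is not given.

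Some libraries stood apart from their groups. UVB-treated Ifnk TG node library 11 held kidney transcripts: the sum over 10 kidney genes (Kap, Slc34a1, Umod, Miox, Lrp2, Slc12a1, Slc22a6, Cdh16, Slc5a2 and Aqp2, a list chosen after the values were seen) was 883 CPM there and at most 0.451 CPM in the other 11 node libraries. Kap alone had 11568 counts in that library. In it, 266 genes with at least 50 counts stood more than 5 times above every other node library, after 5 counts were added to the highest of those. Library 11 was also the node library with the most Emcn, Flt1 and Kdr counts, at 55, 63 and 219, and unirradiated Ifnk TG library 5 came next, at 31, 58 and 211. Whether those counts are of kidney origin was not tested. UVB-treated Ifnk TG library 12 lay among the unirradiated libraries on the first principal component of the nodes, at -19.5, against -31.5 to -17.4 in the 6 unirradiated libraries and 30.6 to 49.7 in the 3 irradiated WT libraries. Of the 805 genes that UVB changed in WT nodes, the share lying nearer the irradiated WT mean was 84.2 percent in Ifnk TG library 10, 53.5 percent in library 11 and 44.2 percent in library 12. Medians, counts and some of the fold changes for irradiated Ifnk TG nodes are therefore also given without libraries 11 and 12. That alternative was chosen after the data were seen. For UVB in Ifnk TG nodes, the fold changes of Pecam1 and Cdh5 are given with all libraries only. The same holds for Pecam1, Egfl7 and Vwf between the genotypes after UVB.

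**Figure D1:**
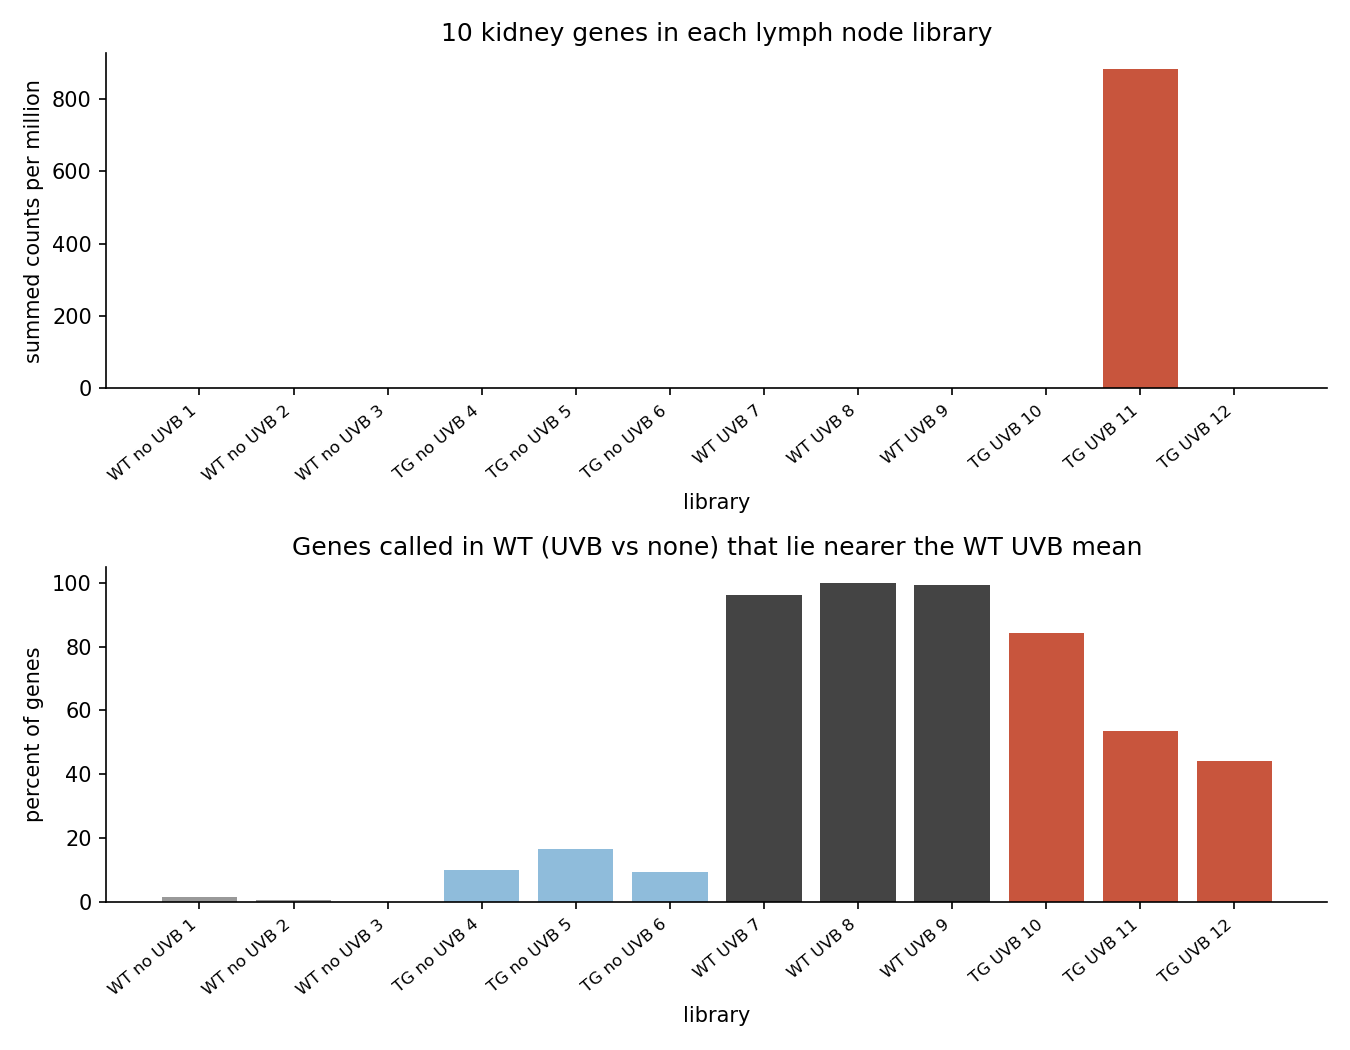
The upper bars give the summed CPM of 10 kidney genes in each of the 12 lymph node libraries, and the lower bars give, for each library, the percent of the 805 genes called in WT nodes after UVB that lie nearer the irradiated WT mean than the unirradiated WT mean. The WT bars are high or low by construction; Ifnk TG library 11 holds 883 CPM of kidney transcripts, and libraries 11 and 12 lie between the 2 states at 53.5 and 44.2 percent.

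In skin, lesional library 5 stood apart. Its adipocyte markers summed to 777 CPM against 3568 to 4061 CPM in the other 3 lesional libraries, and its skeletal muscle markers to 26.0 CPM. The same kidney genes summed to 37.0 CPM in it and to between 0.401 and 4.83 CPM in the other 8 skin libraries. Counts of the 9 genes and of the vessel gene lists in lesional skin are given with and without lesional 5. Lesional 4 stood apart on other measures. By the rule used for the nodes, 50 genes stood more than 5 times above every other skin library in it. In lesional 5, 6 and 7 it was 9, 11 and 12 genes. Among the lesional libraries, lesional 4 had the lowest hair shaft sum, 1854 CPM, and the highest skeletal muscle sum, 7106 CPM. The count of the 9 genes is given without lesional 4 as well.

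The comparison of lesional Ifnk TG skin with WT skin asks what differs in skin that has formed lesions. In it, 5 of the other 9 genes fell and 0 rose: the receptor genes Kdr, Flt1 and Tie1, the junction gene Cdh5 and the sialomucin gene Emcn. Fewer endothelial cells and less RNA per cell cannot be told apart in bulk tissue. The authors report lesions mostly on the face, and nonlesional skin taken from the back and from areas like those of the lesions. Body site may thus differ with lesion status, and its part was not tested.

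Kdr stood at 50.3, 45.7 and 49.6 CPM in WT 8, 9 and 10, at 35.3 and 28.5 CPM in nonlesional 2 and 3, and at 14.9, 14.5, 22.0 and 32.8 CPM in lesional 4, 5, 6 and 7. All 4 lesional libraries lay below all 3 WT libraries, and the nonlesional pair lay between the WT values and 3 of the 4 lesional values. Kdr fell by 1.21 on the log2 scale (SE 0.27, 2.31-fold lower, edgeR adjusted p 0.00773) in lesional against WT skin. Flt1 stood at 35.9, 32.7 and 32.7 CPM in WT, 23.5 and 18.1 CPM in nonlesional and 13.1, 15.3, 17.7 and 24.8 CPM in lesional skin. The WT libraries were highest and close together, and the nonlesional and lesional values overlapped. Flt1 fell by 0.93 on the log2 scale (SE 0.21, edgeR adjusted p 0.00706). Tie1, the third receptor gene, stood at 23.9, 19.5 and 18.2 CPM in WT, 21.5 and 16.5 CPM in nonlesional and 11.4, 10.2, 16.9 and 15.7 CPM in lesional libraries. Lesional 4 and 5 were lowest, and lesional 6 at 16.9 CPM came close to WT 10 at 18.2 CPM. Tie1 fell by 0.60 (log2, SE 0.20, edgeR adjusted p 0.0415).

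Among the surface proteins, Emcn gave the tightest separation, with 15.4, 11.7 and 13 CPM in WT, 12.8 and 10.3 CPM in nonlesional and 7.43, 6.64, 8.44 and 8.56 CPM in lesional skin. All lesional values were below all values of the other groups. Emcn fell by 0.78 on the log2 scale (SE 0.16, edgeR adjusted p 0.00439) against WT. Cdh5 stood at 65.0, 38.7 and 45.8 CPM in WT, 42.8 and 28.5 CPM in nonlesional and 18.8, 13.0, 25.2 and 35.4 CPM in lesional libraries. WT 8 was the highest of all, and lesional 7 at 35.4 CPM came close to WT 9 at 38.7 CPM. Cdh5 fell by 1.11 (log2, SE 0.34, edgeR adjusted p 0.0281). Pecam1 stood at 119, 78.7 and 85.2 CPM in WT, 97.7 and 81.1 CPM in nonlesional and 54.0, 40.2, 78.8 and 72.8 CPM in lesional skin. WT 9 at 78.7 CPM and lesional 6 at 78.8 CPM overlapped. The Pecam1 log2 fold change was -0.62 (SE 0.24, edgeR adjusted p 0.0664; DESeq2 adjusted p 0.0384).

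Clec14a varied little in skin: 15.6, 12.0 and 14.7 CPM in WT, 15.1 and 13 CPM in nonlesional and 11.2, 14.1, 11.4 and 12.3 CPM in lesional libraries, 1.39-fold from the lowest to the highest. The 3 groups overlapped, and its fitted log2 fold change was -0.20 for lesional against WT, -0.20 for lesional against nonlesional and -0.0064 for nonlesional against WT skin.

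The secreted factors and the selectin did not pass the test. Egfl7 stood at 17.9, 13.3 and 12.3 CPM in WT, 15.5 and 11.6 CPM in nonlesional and 17.1, 11.9, 15.2 and 16.2 CPM in lesional skin, with the groups on the same range and a log2 fold change of 0.06 (SE 0.19, edgeR adjusted p 0.828) for lesional against WT. Vwf spread most of the 10 genes within the lesional group, at 23.3, 11.5, 58.9 and 33.0 CPM, against 87.1, 48.4 and 55.9 CPM in WT and 61.5 and 57.7 CPM in nonlesional skin. Lesional 6 lay inside the WT range, and the log2 fold change was -1.01 (SE 0.48, edgeR adjusted p 0.124). Sele stood at 6.84, 3.25 and 5.05 CPM in WT, 5.77 and 6.77 CPM in nonlesional and 2.09, 1.78, 5.40 and 4.41 CPM in lesional skin. Lesional 4 and 5 were lowest, lesional 6 and 7 lay inside the WT range, and the log2 fold change was -0.56 (SE 0.42, edgeR adjusted p 0.309).

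**Figure D2:**
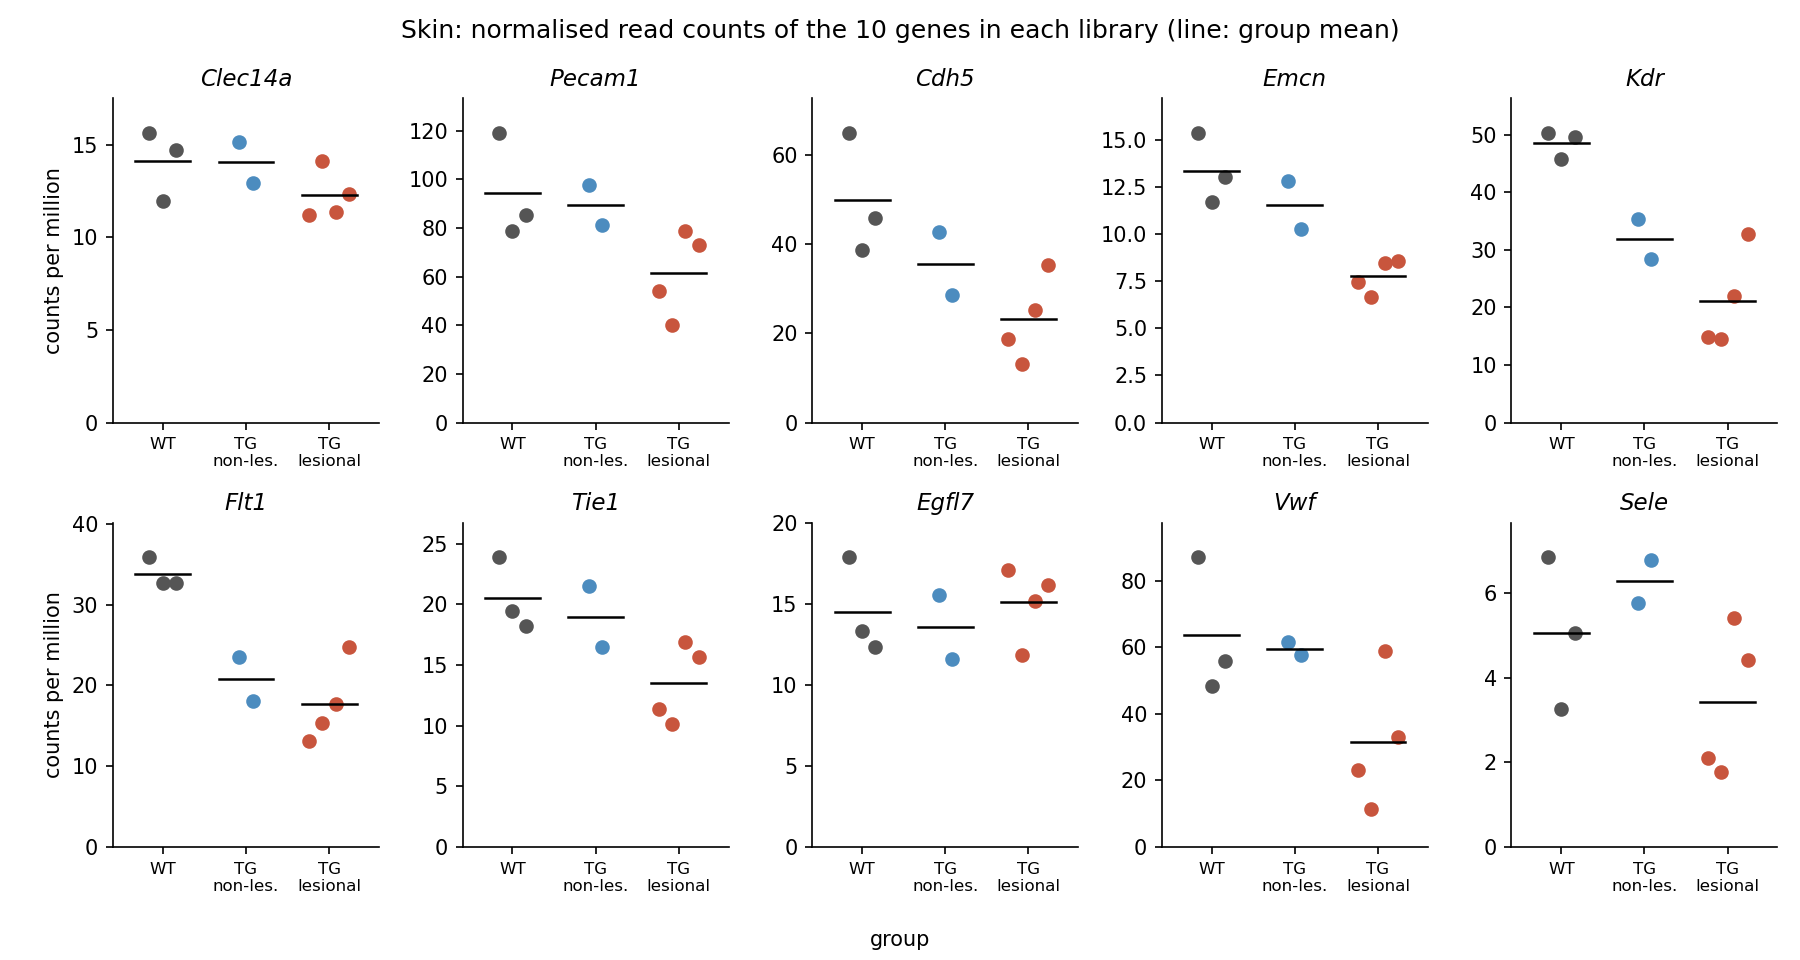
Levels in CPM (vertical axes, each from 0) of the 10 genes in 3 groups of skin libraries, WT and the nonlesional and lesional skin of Ifnk TG mice; each point is 1 library and the line is the group mean. Kdr, Flt1, Emcn, Cdh5 and Tie1 show all 4 lesional points below the 3 WT points, and Clec14a and Egfl7 overlap across the groups.

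The 5 genes that fell, of 9 tested, compare with 43.1 percent of the 19101 genes tested that passed in either direction and 20.2 percent that passed as lower. The same 5 genes were those whose lesional libraries all lay below all WT libraries, where 23.4 percent of the tested genes did so. The median log2 fold change of the 9 genes was -0.78, against 0.06 over all tested genes. In order of group means, Kdr, Flt1, Tie1, Cdh5, Emcn, Pecam1, Vwf and Clec14a ran from WT through nonlesional to lesional skin, Egfl7 was highest in lesional skin and Sele highest in nonlesional skin. Of these 8, Kdr and Flt1 had both nonlesional values below all WT values, and Pecam1 and Emcn had all lesional values below both nonlesional values. The share of all tested genes with both nonlesional values below all WT values was not counted. The other neighbours in that order overlapped, and the 1 call between neighbours by edgeR was Emcn in lesional against nonlesional skin. The Kdr, Flt1 and Emcn calls held under each of 14 alternatives. Without lesional 5, 4 of 9 genes passed: Tie1 had an adjusted p of 0.0760. Without lesional 4, WT 8 or WT 10, 3 of 9 passed, with adjusted p of 0.0600, 0.101 and 0.0567 for Cdh5 and 0.0849, 0.144 and 0.0598 for Tie1. The adjusted p of Tie1 was also 0.0537 without nonlesional 2 and 0.0735 without WT 9. Without lesional 6, Pecam1 and Vwf passed as well, with adjusted p of 0.0401 and 0.0198. Over the 9 fits that left out 1 library, the number of genes called in all ran from 6243 to 8028, against 8237 with every library.

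Other endothelial genes, from lists that leave out the 10 genes, were counted the same way for lesional against WT skin. Of 27 further endothelial genes, 15 fell and 1 rose, with a median log2 fold change of -0.72. Cd34, a sialomucin of endothelium and of some stromal and follicle cells, fell by 1.58 on the log2 scale (edgeR adjusted p 0.000758). Calcrl, the adrenomedullin receptor, fell by 1.18 (log2, edgeR adjusted p 0.00127), and Sox7, an endothelial transcription factor, rose with a log2 fold change of 1.65 (edgeR adjusted p 0.00118). The summed level of these 27 genes was 1037, 1080 and 1064 CPM in WT 8, 9 and 10, 887 and 795 CPM in nonlesional 2 and 3, and 474, 413, 607 and 616 CPM in lesional 4 to 7, with Cd34 the most abundant. Each lesional sum was below each other sum.

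All 5 capillary genes fell, with a median of -1.66: Rgcc by 1.16, Gpihbp1, the lipoprotein lipase anchor of capillaries, by 1.66, and Cd36, a fatty acid transporter also made by fat and muscle, by 1.79 on the log2 scale (edgeR adjusted p 0.00152, 0.00235 and 0.00258). Their sum was 1911, 1348 and 1128 CPM in WT, 956 and 830 CPM in nonlesional and 366, 250, 484 and 632 CPM in lesional libraries. Of 7 arterial genes 1 rose and 1 fell (median -0.59): Efnb2, an ephrin ligand, rose with a log2 fold change of 0.69 and Gja5, a connexin, fell by 1.42, while Gja4 had a log2 fold change of -0.60 and did not pass. Of 5 venous genes, Nr2f2, the venous fate regulator, fell by 0.77 (log2) and the other 4 did not pass (median -0.23), among them Ackr1 at -0.91 and Vcam1 at 0.54. The capillary list was the 1 list of the 3 in which all genes passed.

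Ligands and partners of the receptors were mixed. Of 13 ligand genes, 3 fell and 1 rose, with a median of -0.25: Vegfb by 1.79, Angpt1, the Tek agonist, by 2.43 and Fgf2 by 1.73 on the log2 scale (edgeR adjusted p 0.00153, 0.00265 and 0.00417), and Jag1, a Notch ligand, rose with a log2 fold change of 0.88. Of 13 receptor partners, 6 fell and 1 rose, with a median of -0.66. Acvrl1, a receptor for bone morphogenetic proteins, fell by 0.98 and Tek, the angiopoietin receptor, by 1.42 on the log2 scale, and Nrp1, the co-receptor of Kdr, was 2.84-fold lower (edgeR adjusted p 0.00216, 0.00403 and 0.00973). Nrp2, the co-receptor with a role in lymphatic vessels, is the gene that rose, with a log2 fold change of 1.14.

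Of the 4 genes of the Clec14a family and its ligand, Thbd, the thrombin receptor, fell by 1.01 and Cd248, a stromal and pericyte protein, by 1.10 on the log2 scale (edgeR adjusted p 0.0236 and 0.0393). Mmrn2, the matrix ligand of Clec14a, had a log2 fold change of -0.67 and did not pass (edgeR adjusted p 0.167). The median of the 4 was -0.84. Of 9 adhesion genes of inflamed vessels 2 rose and 1 fell, with a median of 0.54. Among them were Cd44, which leukocytes also make and which rose with a log2 fold change of 1.54, and Icam2, which fell by 0.57 on the log2 scale. Over the 14 alternatives the number that fell ran from 11 to 18 of the further endothelial genes, from 0 to 3 each of the arterial, family and adhesion genes, and stayed at 5 of the capillary genes. Without lesional 5, 13 of the further endothelial genes and 0 arterial, family and adhesion genes fell by edgeR, with adjusted p of 0.0503 for Thbd, 0.0680 for Cd248, 0.0979 for Icam2 and 0.0715 for Gja5. The number that fell was 3 ligand, 6 partner, 5 capillary and 1 venous genes in that fit, and 3 adhesion genes rose. Other libraries had the same effect. It was also 0 arterial genes that fell without nonlesional 2 or 3, lesional 4, or WT 8, 9 or 10. For the adhesion genes it was 0 without nonlesional 2 or 3, lesional 7, or WT 8, 9 or 10. Of the family genes 1 fell without nonlesional 2 or 3, lesional 4, or WT 8, 9 or 10. The Efnb2 rise was lost without WT 9 or WT 10, and the Jag1 rise without WT 9.

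Markers of other cells moved with the same contrast. Hair shaft keratins summed to 1854, 5938, 4759 and 6080 CPM in lesional 4 to 7 and to at most 1.86 CPM in each other skin library. All 8 in the table rose, Krt33a, Krt35 or Krt83 being the most abundant in each library, and 2 or 3 of the 8 were at 0 in each WT library. Skeletal muscle markers summed to 27315, 33807 and 37932 CPM in WT 8, 9 and 10, to 25268 and 30016 CPM in nonlesional 2 and 3, and to 7106, 26.0, 375 and 1507 CPM in lesional 4 to 7, led by Acta1 or Myh1, with none at 0. Of 8, 3 fell. Adipocyte markers, 3 of 7 of which fell, summed to 10372, 8715 and 7079 CPM in WT, 6966 and 6181 CPM in nonlesional and 3690, 777, 4061 and 3568 CPM in lesional libraries, led by Cfd or Fabp4. Markers of muscle and fat, tissues that carry vessels of their own, were thus lower in the lesional libraries and hair shaft markers higher. Their part in the result was not tested.

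Mural, stromal and other lists were counted in the same contrast. Pericyte markers summed to 337, 295 and 322 CPM in WT, 309 and 275 CPM in nonlesional and 223, 196, 191 and 294 CPM in lesional libraries; of 7, 1 rose (Cspg4) and 1 fell (Abcc9, by 2.58 on the log2 scale). Of 5 smooth muscle markers 1 rose and 2 fell, with sums of 1958 to 2678 CPM in WT and 248 to 687 CPM in lesional skin, led by Acta2 or Des. Of 6 fibroblast markers 1 fell, with sums of 4008 to 6838 CPM in WT and 3029 to 7674 CPM in lesional skin, led by Col3a1. Of 8 lymphatic markers, Reln and Lyve1 fell, with sums of 133 to 239 CPM in WT and 69.7 to 172 CPM in lesional skin. None of the pericyte, smooth muscle and fibroblast markers was at 0 in any skin library. Of 8 keratinocyte markers 3 rose, with sums of 9146 to 11273 CPM in WT and 8408 to 24159 CPM in lesional skin, led by Krt10. Of 9 leukocyte markers 3 rose (469 to 1086 CPM in WT and 443 to 1165 CPM in lesional skin, led by Lyz2). Of 6 platelet markers 2 rose and 1 fell, of 6 erythroid markers 1 rose, and 0 of 1 high endothelial venule marker passed by edgeR, with 1 of 4 above the filter; it had an unadjusted p under 0.05 and passed by DESeq2. The part of these cells in the result was not tested.

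Lesional and nonlesional skin of Ifnk TG mice were compared to ask what sets the lesion apart within the genotype. Here Emcn fell, by 0.57 on the log2 scale (SE 0.18, edgeR adjusted p 0.0438), and the other 8 genes did not pass. That is 1 of 9, where 25 percent of all tested genes passed in either direction and 11.8 percent as lower. Pecam1, Emcn and Sele had all lesional values below both nonlesional values, where 24.7 percent of the tested genes did so. The log2 fold changes were -0.54 for Pecam1, -0.63 for Cdh5, -0.60 for Kdr, -0.23 for Flt1, -0.49 for Tie1, 0.15 for Egfl7, -0.91 for Vwf and -0.87 for Sele, and the median of the 9 was -0.57 against 0.03 over all tested genes. The Emcn call was lost when any 1 of several libraries was left out. The adjusted p of Emcn was 0.307 and 0.0952 without nonlesional 2 or 3, 0.0689, 0.0762 and 0.0565 without lesional 4, 5 or 6, and 0.0511, 0.0512 and 0.0679 without WT 8, 9 or 10, and 0 of 9 genes passed in each of those 8 fits. Without lesional 7, 2 of 9 passed. The number of genes called in all moved too: over the 9 fits that left out 1 library it ran from 1182 to 5187, against 4782 with every library.

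In the same comparison 5 of the 27 further endothelial genes fell and 1 rose (median -0.53): Calcrl fell by 1.06 and Cd34 by 1.17 on the log2 scale, and Sox7 rose with a log2 fold change of 1.09. Of 13 ligand genes 3 fell (median -0.30), Vegfb by 1.45, Fgf2 by 1.61 and Angpt1 by 1.83 on the log2 scale, and 0 rose. Of 13 partners 3 fell and 1 rose (median -0.37): Ephb4 fell by 0.37 and Tek by 1.05, and Nrp2 rose with a log2 fold change of 1.45. Of 5 capillary genes Rgcc fell (by 0.71, median -0.76), of 5 venous genes Nr2f2 and Ephb4 fell (median -0.37), of 9 adhesion genes Cd44 rose (median 0.51), and 0 of 7 arterial and 0 of 4 family genes passed by edgeR (medians -0.30 and -0.47). Without lesional 5, 4 of the further endothelial, 3 ligand, 1 partner, 0 capillary and 1 venous genes fell by edgeR, with adjusted p of 0.0555 for Rgcc and 0.0617 for Ephb4, while 3 adhesion genes and 1 venous gene (Vcam1, adjusted p 0.0478) rose. Without nonlesional 2 or without nonlesional 3, 0 genes of those 5 lists passed by edgeR. Other libraries moved the counts both ways. Without lesional 7, 7 further endothelial, 4 capillary, 1 partner and 1 venous genes fell, and without lesional 6, 3 further endothelial, 2 arterial, 3 venous and 0 capillary genes. The further endothelial genes that fell were 3, 3, 3 and 2 without lesional 4, WT 8, WT 9 or WT 10, and the partners 1, 1, 2 and 0. Of the markers, all 8 hair shaft keratins rose, and 0 of 8 muscle, 0 of 7 adipocyte, 0 of 6 fibroblast and 0 of 8 lymphatic markers passed by edgeR, with median log2 fold changes of -3.55, -1.44, 0.17 and -0.22. Of the 11 arterial and family genes, 2 had an unadjusted p under 0.05 by edgeR and 2 passed by DESeq2, and of the 30 markers in the 5 marker lists without a call it was 10 and 3.

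Nonlesional Ifnk TG skin was set against WT skin to ask what the transgene does where no lesion shows. By edgeR 0 of the 9 genes and 0 percent of all tested genes passed. At an unadjusted p under 0.05 by edgeR, 1 of the 9 genes did, where 7.67 percent of the tested genes did; DESeq2 called 0 of the 9 and 62 genes in all. The gene was Flt1, with a log2 fold change of -0.70 (SE 0.25, edgeR p 0.0225, adjusted p 0.599). Both nonlesional libraries lay below all WT libraries for Flt1 and for Kdr, whose log2 fold change was -0.61. The share of all tested genes that did so was not counted, so nothing is read from this separation. The other log2 fold changes were -0.48 for Cdh5, -0.21 for Emcn, -0.11 for Tie1, -0.08 for Pecam1, -0.10 for Egfl7, -0.10 for Vwf and 0.31 for Sele. The median over the 9 was -0.11, against -0.0011 over all tested genes. Small values among these moved with single libraries. Without nonlesional 2, Tie1 was at -0.31, Egfl7 at -0.32 and Emcn at -0.38. Pecam1 and Tie1 changed sign without nonlesional 3, to 0.02 and 0.04, and without WT 8, to 0.13 and 0.01. In this comparison 0 genes of each list passed, by edgeR, with medians of -0.32 for the 27 further endothelial genes and -0.78 for the 5 capillary genes. Of the 72 genes in the 8 vessel gene lists, 5 had an unadjusted p under 0.05 by edgeR and 0 passed by DESeq2, and of the 79 markers in 12 marker lists it was 6 and 0. The 3 skin comparisons share their groups, so their values stand side by side as descriptions.

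**Figure D3:**
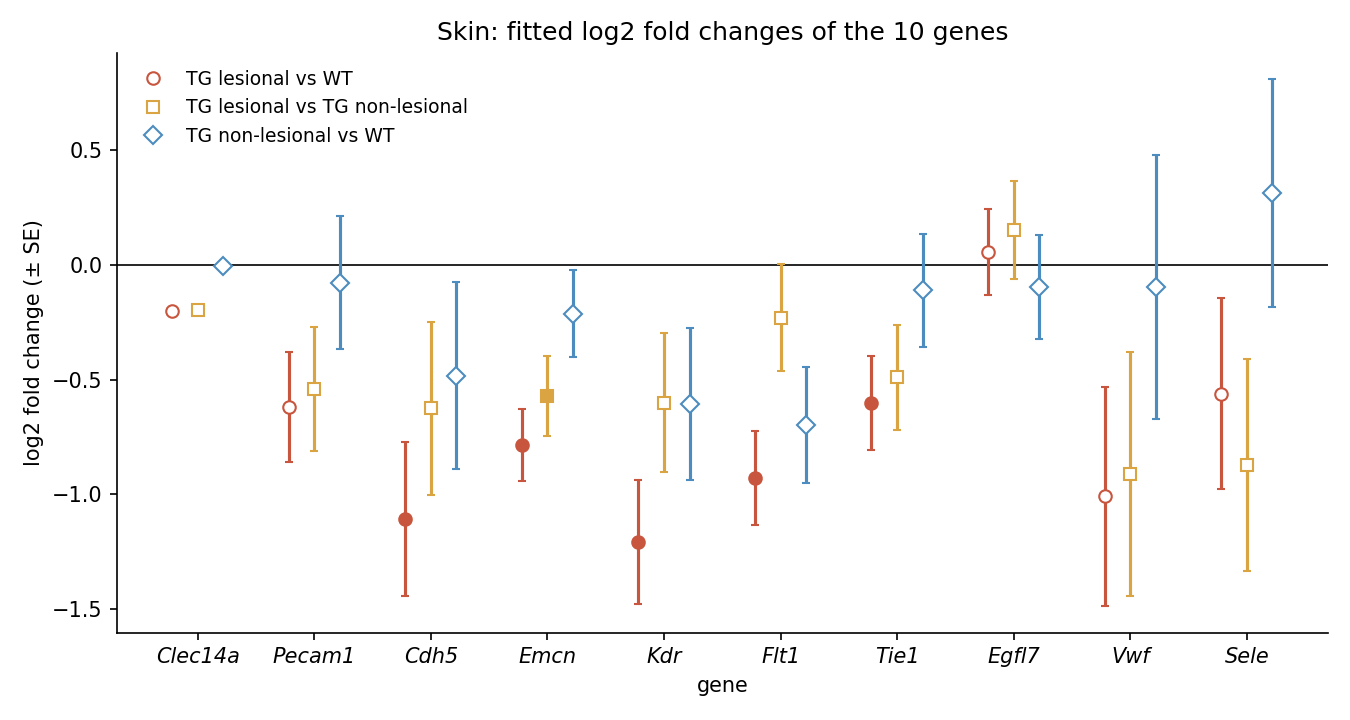
Fitted log2 fold changes (vertical axis) of the 10 genes in the 3 skin comparisons, with the standard error as bars; filled symbols passed the edgeR test at an adjusted p under 0.05, and Clec14a is drawn with no error and no test. Lesional against WT skin shows 5 filled points, from -0.60 (Tie1) to -1.21 (Kdr), and lesional against nonlesional skin shows 1 (Emcn at -0.57).

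In the nodes most of the 10 genes had low counts, and Sele, with 0 to 12 counts, did not pass the filter, which leaves 8 genes beside Clec14a to test. The Clec14a counts were 35, 46 and 46 in unirradiated WT 1, 2 and 3, 61, 92 and 46 in unirradiated Ifnk TG 4, 5 and 6, 13, 4 and 7 in irradiated WT 7, 8 and 9, and 24, 36 and 49 in irradiated Ifnk TG 10, 11 and 12. The irradiated WT libraries were lower than the other 9. Group means were 1.86 CPM (SD 0.67) in unirradiated Ifnk TG, 1.3 CPM (SD 0.21) in unirradiated WT, 1.15 CPM (SD 0.41) in irradiated Ifnk TG and 0.250 CPM (SD 0.13) in irradiated WT nodes. The values of the first 3 overlap. The fitted log2 fold changes were -2.34 for UVB in WT, -0.70 for UVB in Ifnk TG, 0.51 for Ifnk TG against WT without UVB and 2.16 after UVB. Without libraries 11 and 12 the second was -1.40 and the last 1.46.

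UVB was compared with no treatment in WT nodes to describe the node after the skin was irradiated. Pecam1 fell and the other 7 tested genes did not pass. Pecam1 stood at 276, 265 and 310 CPM in unirradiated WT and at 213, 190 and 228 CPM in irradiated WT nodes. The irradiated values were all lower, and Pecam1 fell by 0.43 on the log2 scale (SE 0.094, 1.35-fold lower, edgeR adjusted p 0.0313). Kdr, with 149, 106 and 152 counts without UVB and 70, 63 and 88 counts after it, was lower in all 3 irradiated libraries and did not pass (log2 fold change -0.82, SE 0.31, edgeR adjusted p 0.127). Tie1 had 24, 24 and 32 counts before and 11, 6 and 21 after (log2 fold change -1.02, edgeR adjusted p 0.185). Flt1 had 17, 16 and 26 counts before and 11, 10 and 3 after (log2 fold change -1.21, edgeR adjusted p 0.319). All 3 irradiated libraries lay below the unirradiated ones for both.

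Cdh5 had 190, 156 and 208 counts in unirradiated WT and 201, 158 and 163 in irradiated WT nodes, on the same range, with a log2 fold change of -0.02. Egfl7 had 49, 111 and 37 counts before and 48, 27 and 17 after (log2 fold change -1.04), and Vwf 22, 8 and 37 before and 31, 4 and 9 after (log2 fold change -0.58). Both overlapped between the groups. Emcn had 3, 3 and 9 counts before and 3, 0 and 1 after, too few for a fold change, and Sele 12, 7 and 10 before and 0, 1 and 2 after.

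The choice of Clec14a may have used this contrast, so nothing is read from the counts that follow. Of the 8 genes 1 passed, where 4.98 percent of the 16173 genes tested did, 2.06 percent as lower. In 5 of 8, all irradiated WT libraries lay below all unirradiated WT libraries, where 17.3 percent of the tested genes did so. At an unadjusted p under 0.05 by edgeR it was 4 of 8, and 4256 genes in all. Among the 5 separated genes is Emcn, with 3 counts in both irradiated WT 7 and unirradiated WT 1. Only scaling sets those 2 libraries apart, at 0.0901 and 0.0905 CPM. The median log2 fold change of the 8 was -0.92, and -0.82 without Emcn, against -0.0048 over all tested genes. The Pecam1 call rests on each of 5 libraries: its adjusted p was 0.0507 and 0.131 without unirradiated WT 1 or 3, and 0.0517, 0.151 and 0.0653 without irradiated WT 7, 8 or 9, and 0 of 8 passed in each. The number of genes called in all, 805, moved with each library: it was 277, 190 and 7 without unirradiated WT 1, 2 or 3, 493, 0 and 29 without irradiated WT 7, 8 or 9, 346, 611 and 281 without unirradiated Ifnk TG 4, 5 or 6, and 1583, 595 and 2644 without irradiated Ifnk TG 10, 11 or 12. Without Ifnk TG 10, Kdr passed too (edgeR adjusted p 0.0463). With Ifnk TG 11 and 12 left out, Pecam1 and Kdr passed, with 2733 genes called in all. Sele entered the test in that fit and made the count 3 of 9. Its counts were 12, 7 and 10 in unirradiated WT and 0 to 7 in the other libraries, so it came through the filter by the group it was then tested against, and nothing is read from its call.

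Of 23 further endothelial genes tested in nodes, 3 fell with UVB in WT (median -1.17): Rasip1, a junction regulator, by 1.17, Cyyr1 by 1.77 and Plvap, of vessel fenestrae, by 1.19 on the log2 scale (edgeR adjusted p 0.0359, 0.0363 and 0.0450). Over 17 alternatives that number ran from 0 to 7. By edgeR 0 of 11 ligand, 12 partner, 3 family, 10 adhesion, 4 arterial, 2 capillary and 5 venous genes passed, with medians of -0.19, -0.17, -0.82, -0.23, -0.25, -0.32 and -0.48. Of the 42 different genes in these 7 lists, 11 had an unadjusted p under 0.05 by edgeR and 1 passed by DESeq2. The genes of lowest p in these lists were Apln, a peptide ligand of tip cells (log2 fold change -2.01, edgeR adjusted p 0.0756), Robo4, a guidance receptor (-2.67 and 0.0830), Mmrn2 (-0.82 and 0.170), Lrg1 (-1.47 and 0.0934), Gja4 (-1.39 and 0.170), Rgcc (-0.37 and 0.109) and Nr2f2 (-1.11 and 0.180).

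Stromal, mural and red cell markers were also lower in irradiated WT nodes. Fibroblast markers summed to 66.1, 63.6 and 46.1 CPM in unirradiated WT 1 to 3 and to 37.9, 13.9 and 14.9 CPM in irradiated WT 7 to 9, led by Col1a2 or Dcn, and 1 of 6 fell. Smooth muscle markers summed to 20.0, 22.6 and 16.9 CPM and to 12.0, 5.49 and 5.61 CPM, led by Des or Tagln, and 2 of 4 fell (Tagln and Acta2). Pericyte sums were 24.0, 24.1 and 18.9 CPM before and 13.9, 6.29 and 8.15 CPM after, with 0 of 5 called by edgeR. Lymphatic sums, led by Ccl21a, were 65.5, 71.7 and 55.8 CPM before and 45.2, 18.1 and 20.0 CPM after, with 0 of 7 called by edgeR. Irradiated values were lower throughout. Erythroid genes summed to 134, 121 and 265 CPM before and 14.5, 10.8 and 39.5 CPM after, led by Hbb-bs, and 4 of 6 fell. Of 4 high endothelial venule markers Glycam1 fell, by 1.34 on the log2 scale, with sums of 7.42 to 10.4 CPM before and 4.78 to 7.39 CPM after. Of 2 adipocyte genes Fabp4 fell, and 0 of 9 leukocyte, 3 platelet, 3 skeletal muscle, 2 keratinocyte and 1 hair shaft genes passed by edgeR. Of the 30 markers in the 7 marker lists without a call, 9 had an unadjusted p under 0.05 by edgeR and 3 passed by DESeq2. In all, 9 of the 52 markers passed by edgeR, 5 without unirradiated Ifnk TG library 5 and 16 without irradiated Ifnk TG libraries 11 and 12. Leukocyte sums were 4630 to 4853 CPM before and 4425 to 4584 CPM after. The part of these cells in the values of the 10 genes was not tested.

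The same UVB comparison in Ifnk TG nodes had 0 of 8 genes past the edgeR test and 0 percent of all tested genes. At an unadjusted p under 0.05 it was 1 of 8 and 9.32 percent of the tested genes, and DESeq2 called 0 of 8 and 134 genes in all. Egfl7 had 94, 153 and 67 counts without UVB and 39, 40 and 28 after it, all lower (log2 fold change -1.38, SE 0.47, edgeR p 0.0110, adjusted p 0.398). Vwf had 30, 51 and 42 counts before and 16, 16 and 13 after, also all lower (log2 fold change -1.28, edgeR adjusted p 0.536). These low values held in libraries 10, 11 and 12 alike. Without libraries 11 and 12 the log2 fold changes were -1.36 for Egfl7 and -1.30 for Vwf. The share of all tested genes with all irradiated values below all unirradiated values was not counted here. Nothing is therefore read from this separation.

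Kdr had 153, 211 and 178 counts without UVB and 94, 219 and 151 after it in Ifnk TG nodes, with library 11 highest. Its log2 fold change was -0.03 with all libraries and -0.88 without libraries 11 and 12. Flt1 had 16, 58 and 16 counts before and 22, 63 and 14 after, again highest in library 11, and its log2 fold change went from 0.35 to -0.39. Emcn had 16, 31 and 8 counts before and 4, 55 and 7 after. Unirradiated Ifnk TG library 5 was the highest of its group for each of these 3 genes, and it also had the highest fibroblast, lymphatic and pericyte sums of the nodes, at 109, 149 and 38.5 CPM. Tie1 had 36, 73 and 30 counts before and 21, 33 and 28 after (log2 fold change -0.58, and -1.08 without libraries 11 and 12). Pecam1 (log2 fold change -0.12) and Cdh5 (-0.0082) overlapped between the groups, at 246 to 252 CPM before and 215 to 251 CPM after for Pecam1 and 231 to 311 counts before and 182 to 303 counts after for Cdh5. The median of the 8 was -0.07, and -0.12 without Emcn, against 0.02 over all tested genes. Without unirradiated library 5 the median of the 8 was 0.0078, and 0 of 8 had an unadjusted p under 0.05 by edgeR. Without libraries 11 and 12, with library 10 alone in its group and assumed to vary like the other groups, 0 of the 8 genes passed by edgeR, 1 had an unadjusted p under 0.05, their median was -0.98, and 644 genes were called in all; without library 12 alone, 0 of 8 passed and 236 were called.

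Of the further endothelial genes 0 of 23 passed for UVB in Ifnk TG nodes by edgeR (median -0.72), the lowest p being that of Sox18, an endothelial transcription factor, with a log2 fold change of -1.75 (edgeR adjusted p 0.174). Each other list had 0 genes past the edgeR test as well. Of 59 genes in the 8 vessel gene lists 15 had an unadjusted p under 0.05 and 2 passed by DESeq2. For the 52 markers in 12 marker lists it was 15 and 1. Without unirradiated Ifnk TG library 5 the median of the 23 further endothelial genes was -0.31. In that fit 5 of the 59 genes and 4 of the 52 markers had an unadjusted p under 0.05 by edgeR. Without libraries 11 and 12 the median of the 23 further endothelial genes was -1.09, 1 of the 59 genes passed by edgeR with 14 at an unadjusted p under 0.05, and 1 of the 52 markers passed with 18. Erythroid sums were 304, 292 and 262 CPM before and 26.2, 117 and 160 CPM after UVB, and fibroblast sums 54.8, 109 and 56.9 CPM before and 30.6, 19.5 and 58.1 CPM after. Library 12 lay at the unirradiated fibroblast level and library 10 had the lowest erythroid sum. Their part in the values of the 10 genes was not tested.

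Ifnk TG and WT nodes without UVB were compared to ask what the transgene changes in a node at rest. The share of all tested genes whose values were all higher or all lower in Ifnk TG nodes was not counted. Nothing is read from such a separation below. By edgeR 0 of 8 genes and 0 percent of all tested genes passed; at an unadjusted p under 0.05 it was 0 of 8 and 3.39 percent, and DESeq2 called 0 of 8 and 2 genes in all. Cdh5 had 257, 311 and 231 counts in Ifnk TG against 190, 156 and 208 in WT nodes, all higher (log2 fold change 0.40, SE 0.19, edgeR adjusted p 1). Pecam1 stood at 252, 246 and 251 CPM in Ifnk TG against 276, 265 and 310 CPM in WT, all lower (log2 fold change -0.19, edgeR adjusted p 1). The others overlapped between the genotypes, with log2 fold changes from 0.29 (Kdr) to 0.75 (Vwf) beside the low counts of Emcn. The median of the 8 was 0.51, and 0.48 without Emcn, against -0.0038 over all tested genes, and of the further endothelial genes 0.45, with 0 of 23 called by edgeR. Ifnk TG library 5 was the highest of its group for each of the 8 genes but Pecam1. Without it the median of the 8 was 0.15 and that of the further endothelial genes 0.08, and Flt1 went from 0.48 to -0.44. Over the 8 vessel gene lists, 0 of 59 genes passed by edgeR, 5 had an unadjusted p under 0.05 and 0 passed by DESeq2, and over the 12 marker lists it was 0, 3 and 0 of 52.

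After UVB, Ifnk TG and WT nodes were compared to ask whether the genotypes differ once the skin is irradiated. By edgeR 0 of 8 genes and 0 percent of all tested genes passed; at an unadjusted p under 0.05 it was 5 of 8 and 6.99 percent, and DESeq2 called 0 of 8 and 21 genes in all. The choice of Clec14a may have used this contrast too, and nothing is read from these counts. The share of all tested genes with every Ifnk TG value above every WT value was not counted. Where a gene below is separated in this way, nothing is read from it either. Kdr had 94, 219 and 151 counts in Ifnk TG against 70, 63 and 88 in WT nodes, Flt1 22, 63 and 14 against 11, 10 and 3, and Tie1 21, 33 and 28 against 11, 6 and 21. Library 11 was highest for all 3 genes. In CPM, Kdr and Flt1 had every Ifnk TG value above every WT value, and Tie1 overlapped. Their log2 fold changes were 1.07, 2.04 and 1.11 (edgeR adjusted p 0.673, 0.673 and 0.700), and 0.22, 1.31 and 0.61 without libraries 11 and 12. Emcn had 4, 55 and 7 counts in Ifnk TG against 3, 0 and 1 in WT nodes. Its Ifnk TG values were all higher, and most of those counts came from library 11, which held the kidney transcripts. Cdh5 was also higher in every Ifnk TG library, at 6.33 to 9.27 CPM against 5.00 to 6.04 CPM, and had 230, 182 and 303 counts against 201, 158 and 163 (log2 fold change 0.41, edgeR adjusted p 0.713, and 0.27 without libraries 11 and 12), and Pecam1, Egfl7 and Vwf overlapped, with log2 fold changes of 0.13, 0.20 and 0.04. The median of the 8 was 0.74, and 0.41 without Emcn, against 0.0065 over all tested genes, and that of 23 further endothelial genes 0.97, with 0 called by edgeR. Without libraries 11 and 12 the median of the 8 was 0.25 and that of the further endothelial genes 0.40, and 0 of the 8 genes had an unadjusted p under 0.05. Of the 59 genes in the 8 vessel gene lists, 0 passed by edgeR, 12 had an unadjusted p under 0.05 and 1 passed by DESeq2, and of the 52 markers it was 0, 13 and 0. Without libraries 11 and 12, edgeR called 0 of either, with 2 of the 59 genes and 4 of the 52 markers at an unadjusted p under 0.05.

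The difference between the UVB effects in the 2 genotypes was tested as an interaction. By edgeR 0 of 8 genes and 0 percent of all tested genes passed; at an unadjusted p under 0.05 it was 1 of 8 and 5.45 percent, and DESeq2 called 0 of 8 and 5 genes in all. The gene was Pecam1, with a log2 difference of 0.31 (SE 0.13, edgeR p 0.0342, adjusted p 0.848), and 0.23 without libraries 11 and 12. The Clec14a log2 difference was 1.65, and 0.94 without those libraries. The 59 genes of the vessel gene lists held 0 calls by edgeR, 1 unadjusted p under 0.05 and 0 calls by DESeq2. For the 52 markers it was 0, 3 and 0. Without unirradiated Ifnk TG library 5, 4 of the 59 and 6 of the 52 had an unadjusted p under 0.05 by edgeR. The median log2 difference of the 23 further endothelial genes was 0.38 with all libraries and 0.95 in that fit. Without libraries 11 and 12, 0 of the 8 genes, 0 of the 59 and 3 of the 52 had an unadjusted p under 0.05 by edgeR, and 0 were called. The Pecam1 fall in WT nodes is thus not shown to differ from the value in Ifnk TG nodes. The 4 node comparisons and the interaction share their groups, and their values stand side by side.

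**Figure D4:**
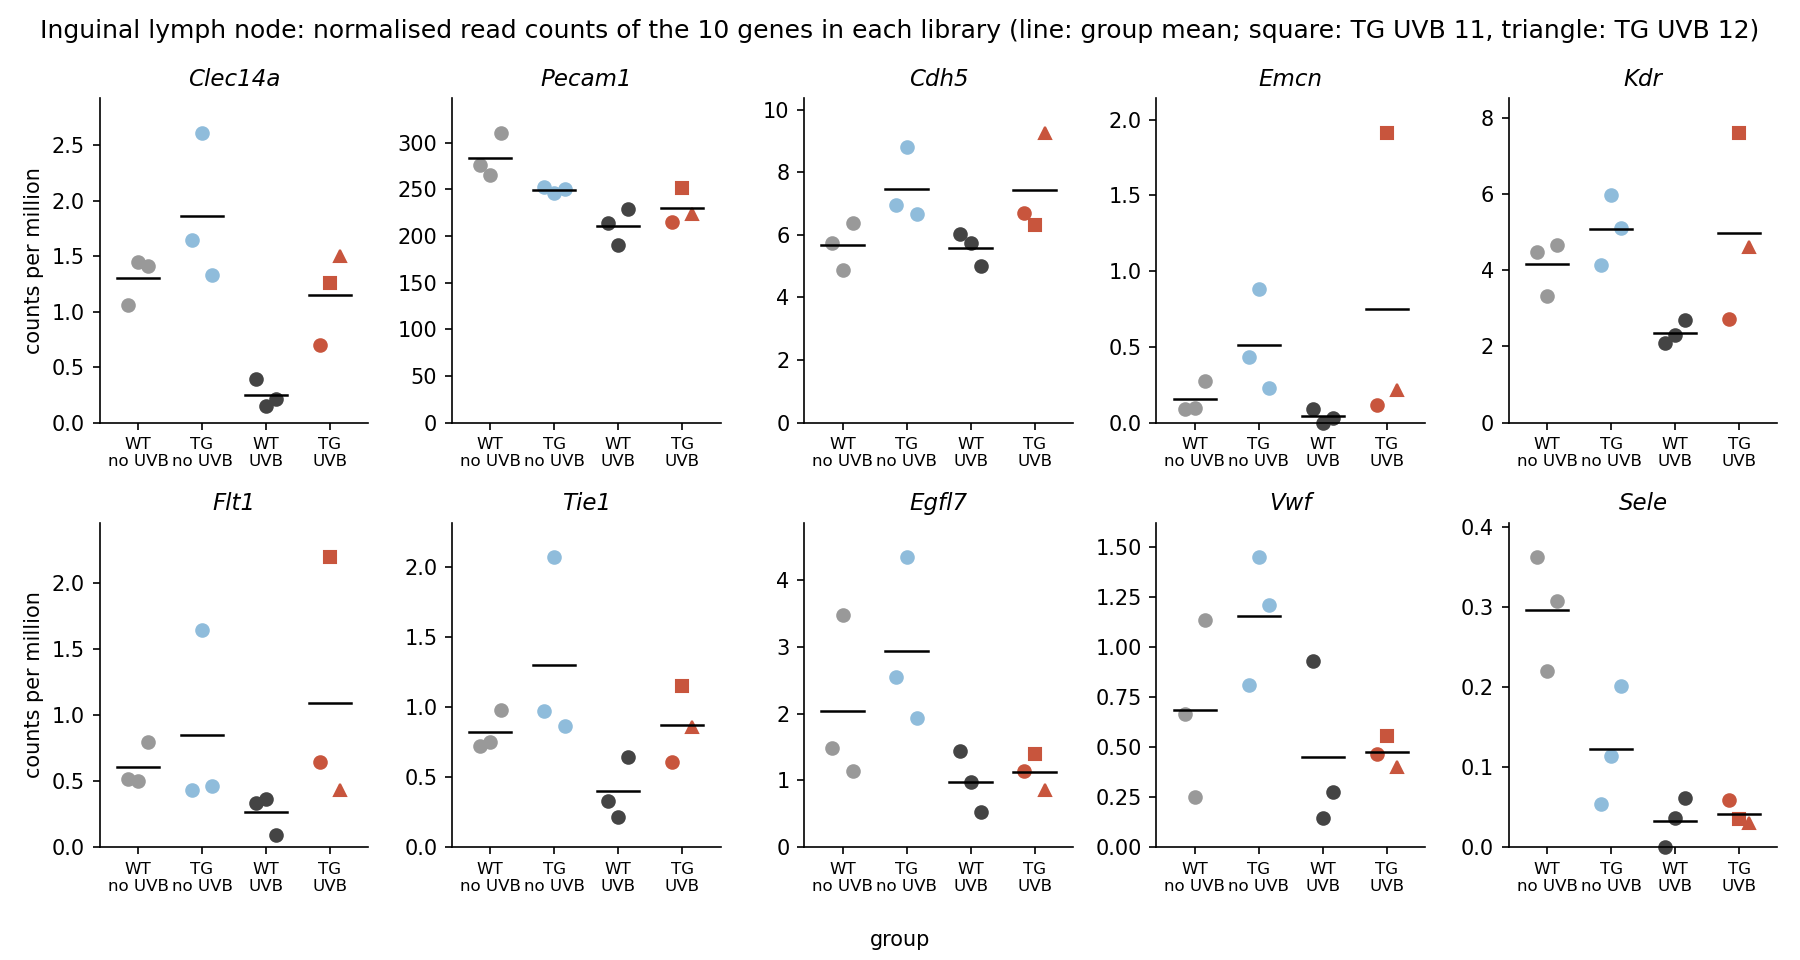
Levels in CPM (vertical axes, each from 0) of the 10 genes in the 4 groups of lymph node libraries; each point is 1 library, the line is the group mean, and the square and triangle are irradiated Ifnk TG libraries 11 and 12. Irradiated WT nodes hold the 3 lowest Clec14a values, at 13, 4 and 7 counts, and library 11 has the highest Emcn, Flt1 and Kdr.

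Across libraries the 10 genes varied together to different degrees, and the correlations are given as descriptions, over libraries that share groups, depth and tissue composition. In skin the 45 pairs had a median Pearson r of 0.767 in log2 CPM over 9 libraries, from -0.09 to 0.97, and 44 were above 0. With each library centred on its group mean the median was 0.735, and the median Spearman rho was 0.683. Pecam1 with Tie1 had the highest r, at 0.972, followed by Pecam1 with Vwf at 0.971 and Kdr with Flt1 at 0.964. Egfl7 had the lowest median r with the other genes, 0.146, and 0.578 after centring on groups. Clec14a had a median of 0.431, and 0.043 after centring. The Clec14a correlations differ without lesional 5, the library lowest for most of the other genes, where Clec14a stood at 14.1 CPM. Without it, r of Clec14a was 0.844 with Pecam1, 0.859 with Cdh5, 0.892 with Emcn, 0.724 with Kdr, 0.650 with Flt1, 0.765 with Tie1, 0.698 with Vwf and 0.657 with Sele, against 0.4, 0.480, 0.613, 0.473, 0.504, 0.431, 0.257 and 0.355 with all 9 libraries. With Egfl7 it was 0.0040 without and -0.088 with that library.

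In the nodes the 36 pairs of the 9 genes above the filter had a median r of 0.545 over 12 libraries, from -0.06 (Pecam1 with Cdh5) to 0.86 (Clec14a with Tie1), and 35 were above 0. Centred on groups the median was 0.352, the median Spearman rho was 0.528, and the median r without libraries 11 and 12 was 0.685. Emcn with Kdr had an r of 0.860 and Emcn with Flt1 0.825, 2 pairs whose highest values all lie in library 11. The genes whose log2 CPM followed Clec14a most closely were Hsd17b13, Cnksr2, Wnt2b, Nktr and Rai1 in skin, with r of 0.957, 0.939, 0.930, 0.922 and 0.905 over 9 libraries among 19100 genes, and Gstt1, Acta2, Fkbp9, Mgp and Gtf2f2 in nodes, with r of 0.969, 0.964, 0.962, 0.957 and 0.956 over 12 libraries among 16172 genes. None of these is among the other 9 genes, of which Emcn came nearest in skin (r 0.613) and Tie1 in nodes (r 0.862). Without irradiated Ifnk TG library 11, which held the kidney transcripts and the most Emcn counts, Emcn came nearest (r 0.877). Tie1 followed (r 0.864), both over 11 libraries.

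**Figure D5:**
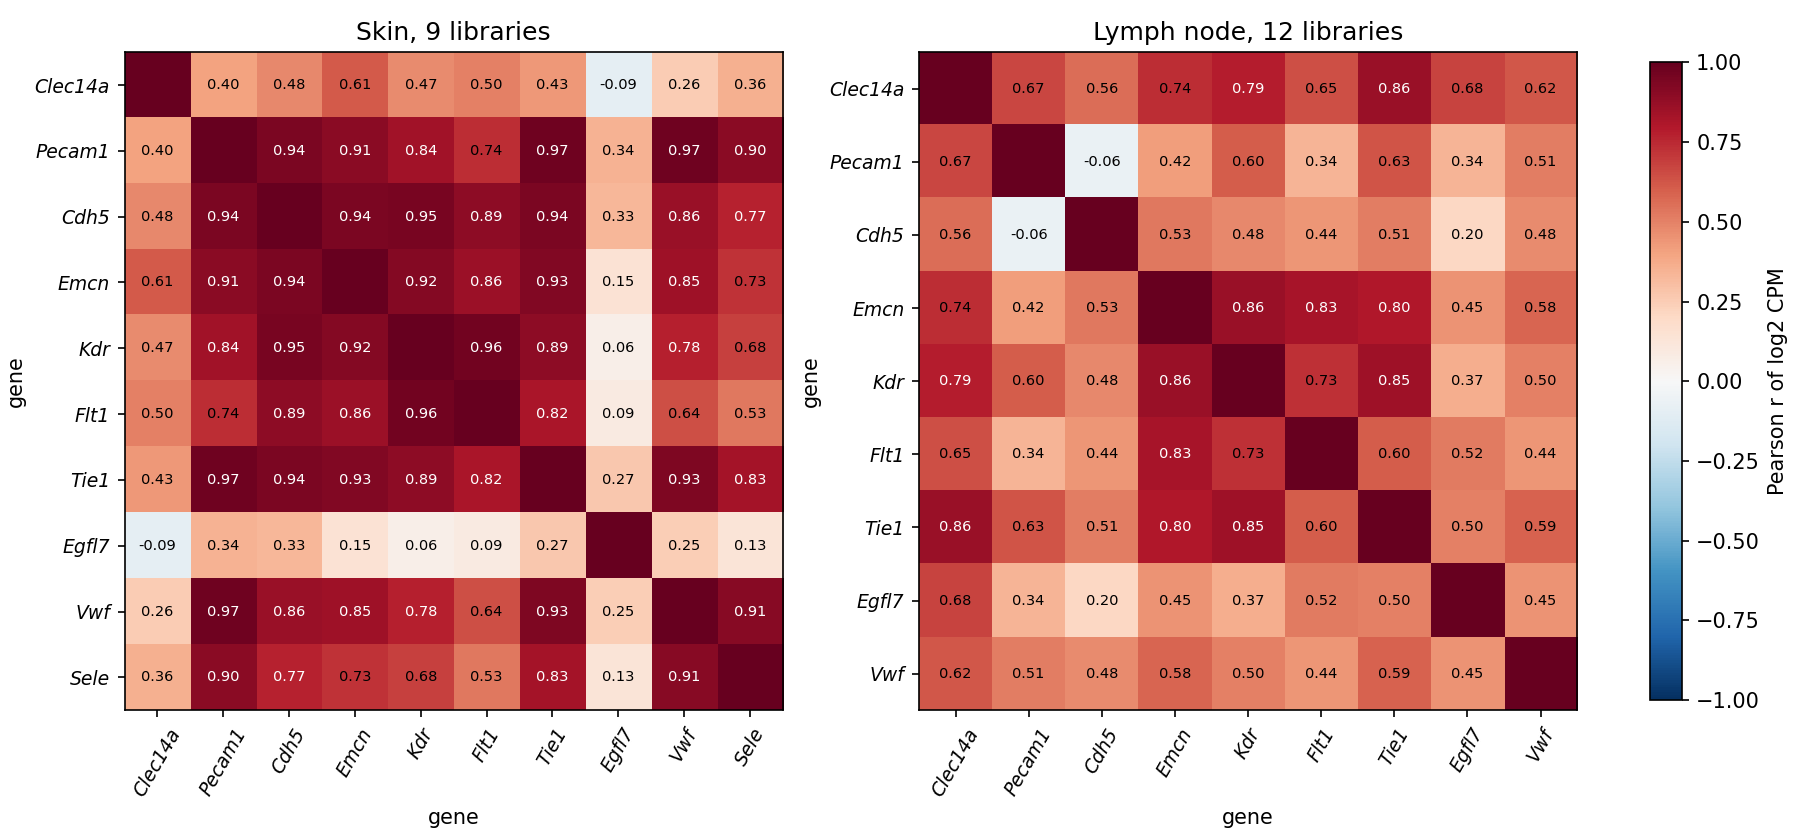
Pearson r of log2 CPM (colour and number) between each pair of the genes over 9 skin libraries (left, 10 genes) and 12 lymph node libraries (right, 9 genes, without Sele). In skin Pecam1 and Tie1 have the highest value, 0.97, and the pairs with Egfl7 are all under 0.35; the median is 0.767 in skin and 0.545 in nodes.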

How the data were processed

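RNA was measured in 9 skin and 12 inguinal lymph node libraries of WT and Ifnk TG mice. Per the deposited labels, the authors trimmed polyadenylated RNA reads with cutadapt 4.8, checked them with FastQC 0.11.8 and MultiQC 1.20, aligned them to GRCm38 with STAR 2.7.8a and made expected counts per gene with RSEM 1.3.3. The deposited expected counts are rounded to whole numbers and not normalized. They ran from 40499078 to 56511276 per skin library and from 27599809 to 36428435 per node library. This total sets the highest share that a count of 0 allows (given in the report).

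In R 4.3.3, each tissue was fitted as a whole, every library included, with edgeR 4.0.16 (TMM, robust quasi-likelihood F-test, limma 3.58.1), after filterByExpr (minimum count 10, minimum total 15). Libraries were grouped by tissue, genotype, lesion and UVB as labelled. There were 3 skin comparisons, 4 node comparisons and 1 interaction. P-values were adjusted over all tested genes by the Benjamini-Hochberg method, with a threshold of 0.05. Clec14a was not tested. Log2 CPM used a prior count of 2. The workflow was tested on simulated data.

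The alternatives were DESeq2 1.42.0, RLE factors, no filter on low counts, only the compared groups, hair, muscle and adipocyte genes left out before normalization (skin), group-centred values or Spearman rho for correlations, and each library left out in turn. Leaving out irradiated Ifnk TG node libraries 11 and 12 together was added after the data were seen.

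The named genes are all 10 genes in every comparison, up to 3 genes of smallest edgeR p from each vessel gene list (not all of them printed), and the 5 genes of highest Pearson r with Clec14a in each tissue. Others were named after their values were seen, as was the kidney list. The 10 genes and the other lists were chosen with earlier results from these data known. The 4 reporter entries (Cre, EGFP, mCherry and tdTomato), all at 0 counts, were left out.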

Additional observations from a re-analysis of the deposited data

Results flagged for a closer look

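Lesional skin library 5 lay far from the other 3 lesional libraries in the summed CPM of adipocyte markers, at 777 against 3690, 4061 and 3568 in lesional 4, 6 and 7. Such a gap within a group arises by chance in about 1 in 20 groups, and each of the 10 genes and each list sum was looked at in this way in the 4 lesional libraries. The reason for the gap was not tested.

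Irradiated Ifnk TG node library 11 held a signal from genes outside the comparisons of the report: 10 kidney genes, chosen after their values were seen, summed to 883 CPM, against at most 0.451 CPM in the other 11 node libraries. Its source was not tested.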

How the results depend on the processing

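For lesional against WT skin, 5 of 9 genes passed, 5 to 6 under the 5 other settings and 3 to 7 with 1 library left out. Of the 14 alternatives, Emcn, Flt1 and Kdr passed in 14, Cdh5 in 11 and Tie1 in 8, and none of these changed direction. For lesional against nonlesional skin the count of 1 (Emcn) went to 0 with no filter on low counts (4050 genes called in all) and to 0 with only the compared groups (3156), and ran from 0 to 2 with 1 library left out. Emcn passed in 4 of 14 alternatives. For UVB in WT nodes the count of 1 (Pecam1) became 2 with only the compared groups (2431 called in all) and 3 without irradiated Ifnk TG libraries 11 and 12, an alternative added after the data were seen. The 3 include Sele, which came through the filter by its counts in unirradiated WT, the group it is tested against. It ran from 0 to 2 with 1 library left out, and Pecam1 passed in 12 of 17 alternatives with its direction kept in all. Fewer libraries in the fit change the estimate of spread; beyond that, the cause was not tested.

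The count was 0 under every alternative for nonlesional against WT skin, UVB in Ifnk TG nodes, both genotype comparisons in nodes and the interaction. For the interaction, the compared groups are all the node libraries, so that setting was not run.

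The median correlation in skin, 0.767, was 0.683 as Spearman rho and 0.735 centred on groups, and ran from 0.715 to 0.828 with 1 library left out. In nodes, 0.545 became 0.352 centred on groups and 0.685 without libraries 11 and 12, and ran from 0.464 to 0.619 with 1 library left out; the cause was not tested.

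Leaving out 1 of the 2 nonlesional libraries, or node libraries 11 and 12, leaves a lone library, assumed to vary like the other groups. No paired analysis was possible because the labels do not say which libraries, if any, come from the same mouse. The skin alternative left out 81 genes before normalization. Depth limits the node values of Emcn and Sele most, with counts under 15 in most libraries.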
